A study of Danio rerio with 15 samples.

Results

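The genes described here are 5 zebrafish genes of vitamin A handling, rpe65a, rlbp1a, rlbp1b, rbp2a and stra6, read in bulk RNA of embryo heads. They were chosen by gene name, and all 5 were found among the 23009 genes of the deposited tables and passed the filter on low values. The choice was made with fold changes of these same libraries in view, so the differences between groups below are a description of these libraries and carry no test. Each library came from a pool of 20 wild-type embryos at 2 days post-fertilization. There were 3 groups of 5 libraries, namely S1 to S5 from embryos given phenol red (a tracer dye), S6 to S10 from embryos given a guide RNA against ncapg2, and S11 to S15 from embryos given that guide RNA with the nuclease Cas9. No group received Cas9 without the guide RNA, so effects of cutting ncapg2 and of Cas9 itself cannot be told apart, and pooled injected embryos can hold cells with different edits. The study asked what loss of NCAPG2, a subunit of the chromosome-compacting complex condensin II, does to the transcriptome of the developing head.

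Photoreceptors detect light with a cis form of retinal, a derivative of vitamin A, which light turns into the trans form. In the visual cycle, the retinal pigment epithelium, a pigmented cell layer behind the photoreceptors, takes up the trans form, turns it back and returns it. RPE65 is the isomerase of this cycle, the cellular retinaldehyde-binding protein encoded by the rlbp1 genes carries the cis form, rbp2a encodes a cellular retinol-binding protein, a family best known in mammals from the small intestine, and STRA6 is the cell-surface receptor through which cells take up retinol from its carrier in plasma. Zebrafish have more than 1 copy of RPE65, of RLBP1 and of RBP2, and in zebrafish the copies of RLBP1 are known to divide between pigment epithelium and Müller glia. Where copies share sequence, no source used here says how the authors' counting treated the shared reads, and such values are uncertain.

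The libraries held 34.97 to 49.3 M reads (M, mega) assigned to genes. The targeted gene ncapg2 was at 428 ± 48.4 normalized counts (SD, n = 5) with guide RNA plus Cas9, 912 ± 73.7 with guide RNA and 856 ± 69.7 with phenol red, and its groups did not overlap between Cas9 and either control. A normalized count is the number of reads divided by a size factor of the library, so it compares libraries for 1 gene and does not compare genes. Genes of yolk, liver and gut varied widely between libraries of the same group, with summed normalized counts of 25 genes from 12175 to 110335 over the 15 libraries. Libraries at the same place in the column order of their groups (S1, S6 and S11 are position 1, and so on) deviated together, although the columns carry no replicate number. No source used here names the genome build, and coordinates are therefore left out.

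In the order of their roles, the isomerase rpe65a (ENSDARG00000007480) comes first. Its normalized counts with phenol red were 5703, 4431, 4437, 6016 and 4875 in S1 to S5. With guide RNA they were 3569, 3525, 2917, 4256 and 4132 in S6 to S10, so the highest guide RNA library lay below the lowest phenol red library. With guide RNA plus Cas9 they were 5349, 3522, 3975, 5848 and 3386 in S11 to S15, a spread that covered most of both other groups. The means were 5092 ± 731 (SD, n = 5) with phenol red, 3680 ± 537 with guide RNA and 4416 ± 1115 with guide RNA plus Cas9. The guide RNA mean was thus 72.3% of the phenol red mean.

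The carrier gene rlbp1b (ENSDARG00000045808) had the widest range of the 5, with its highest library 2.74 times its lowest. With phenol red its normalized counts were 1256, 888, 658, 1021 and 824. With guide RNA they were 503, 582, 458, 717 and 527, and 4 of these 5 libraries lay below every phenol red library, S9 being the exception. With Cas9 added they were 915, 476, 677, 1076 and 761, of which 1 library, S12, lay below the phenol red range. The means were 929 ± 224 (SD, n = 5), 557 ± 99.7 and 781 ± 229, so guide RNA was at 59.96% of phenol red.

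Its paralog rlbp1a (ENSDARG00000012504) was the flattest of the 5, with its highest library 1.26 times its lowest. Normalized counts with phenol red were 2661, 2784, 2393, 2542 and 3014. With guide RNA they were 2528, 2686, 2478, 2595 and 2922, all inside the phenol red range. Together with Cas9 they were 2484, 2450.4, 2435, 2839 and 2689, also all inside it. The means were 2679 ± 237 (SD, n = 5), 2642 ± 175 and 2580 ± 177.

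The retinol-binding protein gene rbp2a (ENSDARG00000070038) was at 1289.8, 869, 1041, 869.97 and 970.2 normalized counts with phenol red. With guide RNA it was at 1089, 655, 823, 669 and 608, and 4 of these 5 libraries lay below the phenol red range, S6 being the exception. With Cas9 added it was at 933, 765, 1079, 896 and 641, with 2 libraries below the phenol red range. The means were 1008 ± 174 (SD, n = 5), 769 ± 196 and 863 ± 167.

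The receptor gene stra6 (ENSDARG00000051874) was at 1171, 1261, 1088, 1249 and 1023 normalized counts with phenol red. With guide RNA it was at 846, 941, 819, 989 and 1044, and again 4 of 5 libraries lay below the phenol red range, here with S10 inside it. With guide RNA plus Cas9 it was at 1118, 879, 954, 1272 and 920.2, with 3 libraries below the phenol red range and S14 above it. The means were 1158 ± 103 (SD, n = 5), 928 ± 94.9 and 1029 ± 164.

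For every one of the 5 genes in every group, the spread between libraries was larger than reads alone would give. The standard deviation was 6.62 to 29.3% of the group mean, whereas counting error was 1.46 to 4.15% of it. That counting error treats reads as independent of each other and covers counting only. In bulk RNA of a head, fewer cells of a type and less RNA per cell cannot be told apart.

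**Figure D1:**
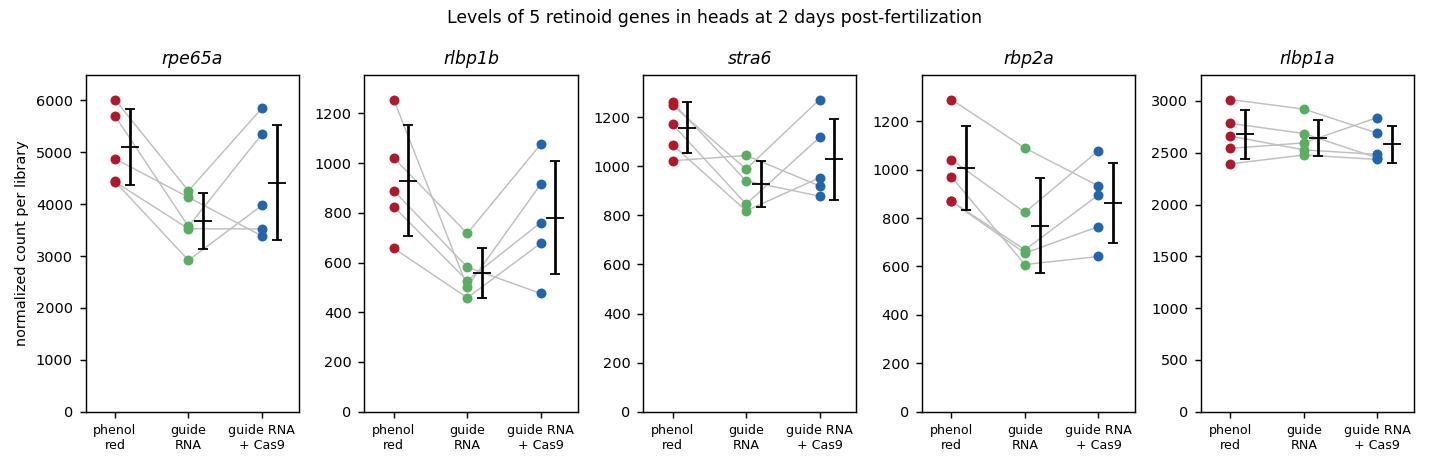
Normalized counts of the 5 genes (vertical axes from 0) in each library of the 3 groups (points), with mean and SD (black), n = 5 per group. Grey lines join libraries at the same place in the column order. For rpe65a the guide RNA libraries (2917 to 4256) lie below all phenol red libraries (4431 to 6016), and rlbp1a differs little between groups.

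Of the 3 comparisons, guide RNA alone against phenol red gave the largest fold changes for rlbp1b, rpe65a, rbp2a and stra6, all of them lower with guide RNA. The log2 fold change was -0.72 ± 0.16 (SE, n = 5 per group) for rlbp1b, -0.47 ± 0.12 for rpe65a, -0.41 ± 0.16 for rbp2a and -0.32 ± 0.08 for stra6, whereas rlbp1a was at -0.02 ± 0.07. Fold changes here are on the scale of log2(normalized count + 1). By limma with Benjamini-Hochberg adjustment over 21601 genes, 0 of the 5 genes and 0% of all genes passed an adjusted p of 0.05. edgeR and DESeq2 on the recovered reads also called none. At an unadjusted p under 0.05 by limma there were 224 genes, 1.04% of those tested, and 4 of the 5 genes were among them. In the order of unadjusted p over all genes, rlbp1b, rpe65a and stra6 held places 1, 2 and 3, and rbp2a held place 82. The authors' deposited table gives places 1, 8, 13 and 97 to rlbp1b, rpe65a, stra6 and rbp2a and also calls 0 genes. These places come from the contrast that the genes were chosen on and support nothing further.

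Guide RNA and phenol red libraries were fully separate for 44 genes (0.204%), and rpe65a was the 1 member among them. Set against the phenol red library at the same column position, rpe65a, rlbp1b and rbp2a were lower with guide RNA at 5 of 5 positions, as were 666 genes or 3.08% of those tested. The guide RNA value of rpe65a was 62.6, 79.6, 65.8, 70.7 and 84.8% of its phenol red partner at positions 1 to 5. For rlbp1b these shares were 40.01, 65.5, 69.7, 70.2 and 64.0%, so position 1 stood furthest down. For rbp2a they were 84.4, 75.4, 79.1, 76.9 and 62.7%, a narrower band than the levels themselves. The receptor gene stra6 was lower at 4 positions, between 72.3 and 79.2%, and at 102% at position 5.

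With column position as a block in the limma fit, 4 genes were called between guide RNA and phenol red, 0.0185% of those tested, all lower with guide RNA. They were rpe65a, rbp2a and, named after their values were seen, the heart genes nppa, a natriuretic peptide gene, and vmhcl, a myosin heavy chain gene. The fold changes of the 5 genes were as without the block, with standard errors of 0.06 for rpe65a, 0.06 for rbp2a, 0.13 for rlbp1b, 0.06 for stra6 and 0.04 for rlbp1a. Which of the 5 were called depended on single positions, in fits added after the data were seen. With position 1 taken out the calls held rpe65a, rlbp1b and rbp2a among 5 genes (0.0231% of those tested). With position 2 taken out they held rpe65a and rbp2a among 74 genes (0.343%). With position 5 taken out they held rpe65a and stra6 among 4 genes (0.0185%). With position 3 taken out 2 genes were called (0.00926%) and with position 4 taken out 0 (0%), none of them among the 5.

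With guide RNA plus Cas9 against guide RNA, 4 of the 5 genes had positive fold changes and 0 were called. The log2 fold change was 0.45 ± 0.20 (SE, n = 5 per group) for rlbp1b, 0.24 ± 0.16 for rpe65a, 0.18 ± 0.17 for rbp2a, 0.14 ± 0.10 for stra6 and -0.03 ± 0.06 for rlbp1a. Of 21590 genes, 1 was called, ncapg2, which is 0.00463%. At an unadjusted p under 0.05 by limma there was 1 of the 5, rlbp1b, without the block, beside 0.917% of all genes. With the block there were 0 of the 5, beside 4.55%. The groups overlapped for all 5 genes, where 50 genes (0.232% of those tested) had groups that did not overlap. At matched column positions rlbp1b and rbp2a were higher with Cas9 at 4 of 5, rpe65a and stra6 at 3. The size rested on single libraries, since without S14 the value was 0.13 for rpe65a and 0.06 for stra6, and without S13 it was 0.09 for rbp2a. With the block of column position 3 genes were called (0.0139%), none of them among the 5. With position 2 also taken out, which left out S7 and S12, rlbp1b was called higher at 0.64, among 6 genes (0.0278%).

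With guide RNA plus Cas9 against phenol red, all 5 genes had negative fold changes, where 47.8% of all genes did, and 0 were called. At an unadjusted p under 0.05 by limma there were 0 of the 5 without the block, beside 2.29% of all genes. With the block there were 3 of the 5, beside 9.12%. The log2 fold change was -0.27 ± 0.23 (SE, n = 5 per group) for rlbp1b, -0.23 ± 0.16 for rpe65a, -0.23 ± 0.14 for rbp2a, -0.18 ± 0.10 for stra6 and -0.05 ± 0.07 for rlbp1a. Of 21580 genes 1 was called (0.00463%), again ncapg2, and with the block 2 genes (0.00927%), neither among the 5. At matched column positions rpe65a was lower at 5 of 5, as were 3.75% of all genes, at 93.8, 79.5, 89.6, 97.2 and 69.5% of phenol red. Without S12 the value of rlbp1b was -0.11, and without S15 that of rpe65a was -0.14 and that of rbp2a -0.13. The 3 comparisons share libraries in pairs, so their signs are not independent of each other.

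**Figure D2:**
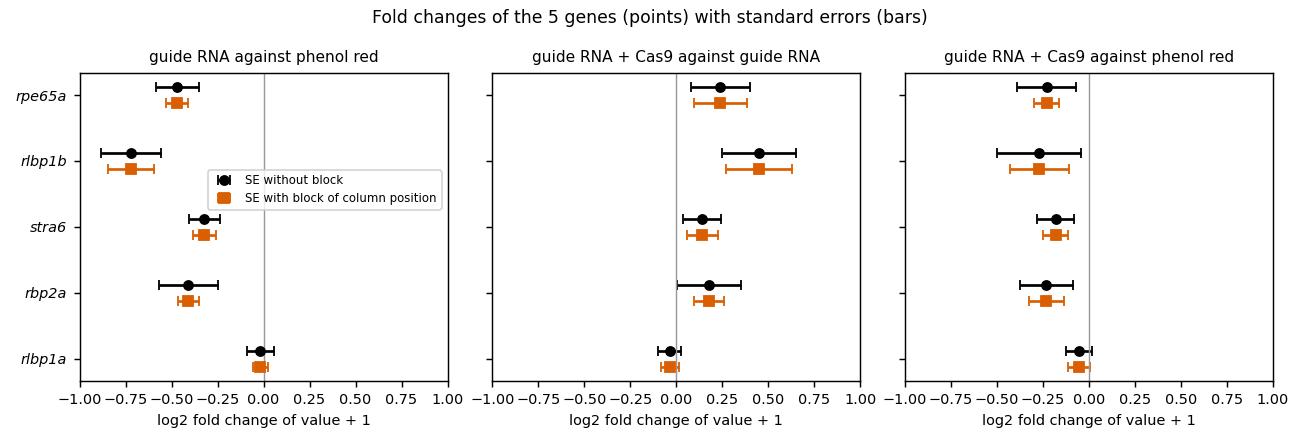
Log2 fold changes of normalized count + 1 for the 5 genes in the 3 comparisons (horizontal axes), with standard errors without and with a block of column position (bars), n = 5 libraries per group. For guide RNA against phenol red the values run from -0.72 for rlbp1b to -0.02 for rlbp1a. For the other 4 genes the values of both Cas9 comparisons lie nearer to 0.

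The variation of each gene over the 15 libraries divided differently between group and column position. For rlbp1b 46.4% of the sum of squares of its log2 values lay between groups and 31.5% between positions, for stra6 42.4 and 23.7%, for rpe65a 38.9 and 41.5%, and for rbp2a 29.2 and 53.9%. Over 21902 genes the medians were 6.85% between groups and 58.4% between positions. The paralog rlbp1a, with 4.94% between groups and 62.9% between positions, was close to those medians. By position, rpe65a was highest at position 4, with a mean of 5373, and lowest at position 3, with 3776, whereas rbp2a was highest at position 1, with 1104, and lowest at position 5, with 739.8.

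**Figure D3:**
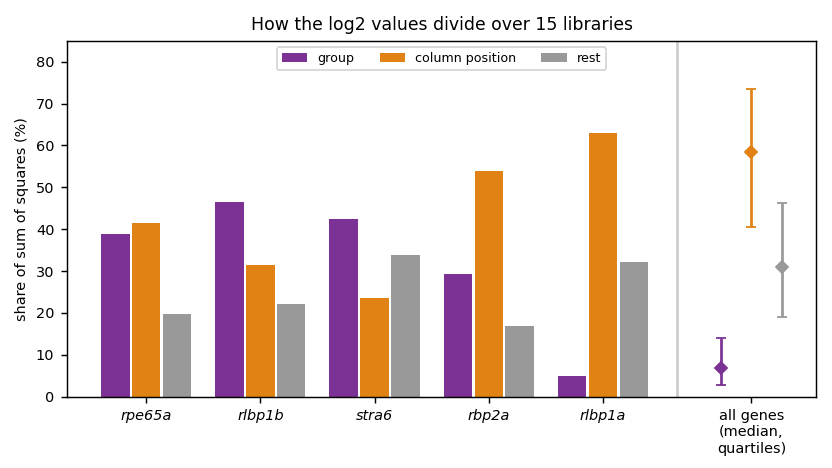
Share of the sum of squares of log2 values (vertical axis, %) that lay between the 3 groups, between the 5 column positions and in the rest, for the 5 genes and as the median of all genes, over 15 libraries. The group share is 46.4% for rlbp1b and 4.94% for rlbp1a, beside a median of 6.85%.

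Over the 15 libraries, rpe65a, rlbp1b and stra6 had the highest correlations with each other. These correlations are descriptions over 15 libraries that share groups, positions and depth. Pearson r of the log2 values was 0.89 between rpe65a and stra6, 0.87 between rpe65a and rlbp1b and 0.84 between rlbp1b and stra6, with Spearman values of 0.89, 0.83 and 0.83. With group means removed, r was 0.82, 0.78 and 0.73. With position means removed as well, it was 0.79, 0.43 and 0.60. Without the 2 libraries farthest from the median of the first gene of each pair, r was 0.84, 0.83 and 0.82. In order of r among 18847 genes, stra6 held place 2 and rlbp1b place 4 for rpe65a, and rpe65a held place 1 for stra6.

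The gene rbp2a had r of 0.42 with rpe65a, 0.40 with rlbp1b and 0.24 with stra6, and with group means removed these were 0.13, 0.06 and -0.17. With position means removed as well they were 0.05, -0.09 and -0.20. The gene rlbp1a had r of 0.29 with its paralog rlbp1b, 0.26 with rpe65a, 0.34 with stra6 and -0.27 with rbp2a. With group and position means removed these were 0.62, 0.54, 0.56 and 0.54, about as high as among rpe65a, rlbp1b and stra6, and the value with rbp2a changed sign.

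The genes most like each of the 5, by Pearson r over 15 libraries among 18843 genes with a mean normalized count of 50 or more, were looked up with the 5 genes themselves left out of the search. For rpe65a they were rgra (0.90), an opsin-like receptor gene of the pigment epithelium, rdh5 (0.88), which encodes a retinol dehydrogenase of the visual cycle, and tm6sf2 (0.81). For rlbp1b they were rdh5 (0.94), pip4k2cb (0.88) and mb (0.88), the myoglobin gene. For stra6 they were inpp5kb (0.88), tm6sf2 (0.85) and rdh5 (0.85). For rbp2a they were the keratin gene krt94 (0.85), the carboxylate transporter gene slc13a2 (0.85) and gcshb (0.84), after 2 genes with clone-style names were passed over. For rlbp1a they were zdhhc24 (0.88), aif1l (0.86) and dcun1d2b (0.86).

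The genes above were picked by r with group differences left in. A direction between groups that they share with the 5 therefore follows in part from that choice. With group and position means removed, r with rpe65a was 0.73 for rgra and 0.55 for rdh5. Over all the pairs named, it then ran from 0.33 (krt94 with rbp2a) to 0.95 (tm6sf2 with stra6). Both rdh5 and rgra had lower means with guide RNA than with phenol red, and neither was called. Normalized counts of rdh5 were 694 ± 139 (SD, n = 5) with phenol red, 499 ± 96.3 with guide RNA and 587 ± 173 with guide RNA plus Cas9, and its log2 fold change for guide RNA against phenol red was -0.47 ± 0.16 (SE). Those of rgra were 1661 ± 301, 1310.3 ± 116 and 1425 ± 252, with -0.33 ± 0.11 (SE). The muscle gene mb went from 3598 ± 924 to 2468 ± 399, a log2 fold change of -0.52 ± 0.17 (SE), and with Cas9 was at 2895 ± 590. Whether muscle or heart tissue in the heads bears on the levels of the 5 genes was not tested.

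**Figure D4:**
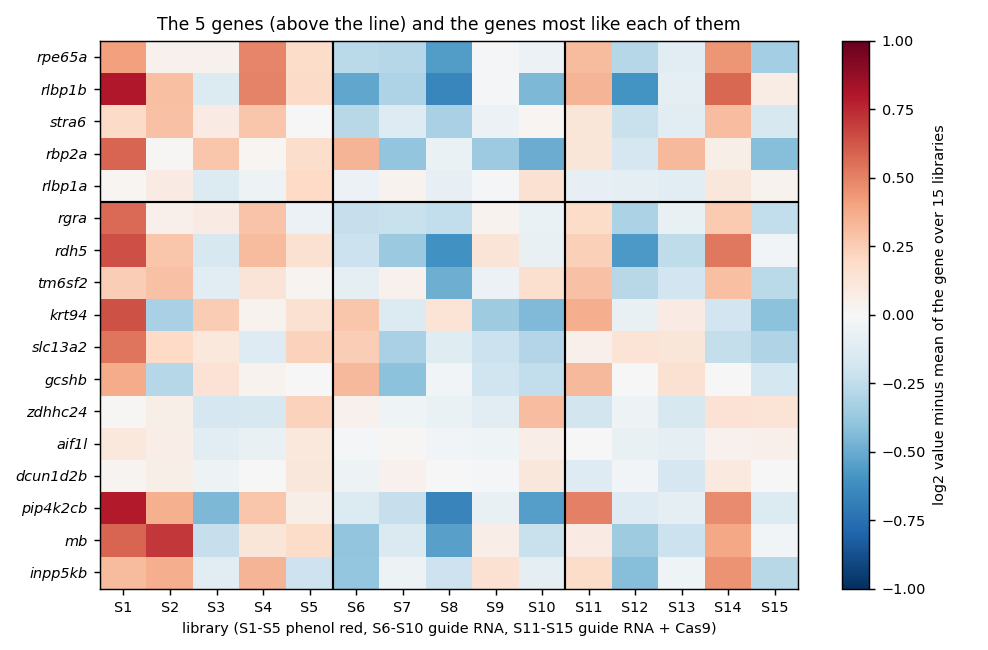
Deviation of each log2 value from its gene's mean of 15 libraries (colour, log2 units) for the 5 genes (above the line) and the genes most like each of them, by library (columns). In S8 rpe65a, rlbp1b and stra6 are all low and in S4 and S14 all are high, whereas rbp2a is lowest in S10 and rlbp1a hardly changes.

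Of 36 other genes of the retinoid cycle and of retinoid carriers, 0 were called in any of the 3 comparisons, without the block or with it. With the block and position 2 taken out, among the 74 genes called between guide RNA and phenol red, rbp4l was called lower, at -0.38 (limma adjusted p of 0.00360). The paralog of rbp2a, rbp2b, was placed in the list of yolk, liver and gut genes instead. It was also called lower in that fit, at -0.50 (limma adjusted p of 0.041). Between guide RNA and phenol red, 28 of the 36 had negative fold changes, with a median of -0.06, where 45.3% of all genes were negative and the median was 0.01. The members of this list with the highest counts were rbp4, the plasma carrier of retinol, at -0.11 ± 0.11 (SE), rbp3, the carrier between photoreceptors and pigment epithelium, at -0.14 ± 0.15, rbp4l at -0.29 ± 0.13 and the retinol dehydrogenase gene rdh10a at -0.04 ± 0.07. The other copies of RPE65, named after their values were seen, were at 0.04 ± 0.11 for rpe65b and -0.10 ± 0.11 for rpe65c, beside -0.47 for rpe65a. Per library, r with the mean log2 level of the 36 genes, rdh5 and rgra among them, was 0.73 for rpe65a, 0.66 for rlbp1b, 0.58 for rbp2a, 0.52 for stra6 and 0.39 for rlbp1a. Gene by gene, the median r with the 36 was lower, at 0.14, 0.15, 0.13, 0.15 and 0.13 in that order. In the same order 8, 8, 4, 8 and 9 of the 36 had r over 0.5, where 2.21, 1.69, 8.31, 1.48 and 6.99% of all genes did. In the other comparisons the median of the 36 was 0.00 with Cas9 against guide RNA and -0.07 with Cas9 against phenol red.

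Of 20 genes of retinoic acid synthesis, breakdown and reception, 8 were negative between guide RNA and phenol red and the median was 0.01. Those with the highest counts were the receptor genes rarga at -0.00 ± 0.07 (SE), rxrba at 0.01 ± 0.11 and rarab at 0.05 ± 0.11, and cyp26b1, which encodes an enzyme that breaks down retinoic acid, at -0.01 ± 0.05. None of the 20 was called in any comparison.

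Melanin genes, which pigment epithelium shares with pigment cells of the neural crest, lay mostly on the side of the 5 genes between guide RNA and phenol red. None of them was called. At an unadjusted p under 0.05 by limma, 7 of 11 were lower with guide RNA with the block, beside 2.75% of all genes. Without the block 1 was, beside 0.518% of all genes. Between guide RNA and phenol red 10 of 11 were negative, with a median of -0.22, and between Cas9 and guide RNA 10 of 11 were positive, with a median of 0.18. The size rested on single libraries. Without S2 the median between guide RNA and phenol red was -0.14, with 9 of 11 negative, and without S6 it was -0.14. Between Cas9 and guide RNA the median was 0.09 without S6 and 0.11 without S14. Most lens and photoreceptor genes, described below, also had these signs in both comparisons. Between Cas9 and phenol red 7 of 11 melanin genes were negative, with a median of -0.03, beside -0.23 for the 5 genes. The values for guide RNA against phenol red were -0.12 ± 0.14 (SE) for tyrp1b, -0.24 ± 0.13 for pmela, -0.25 ± 0.12 for dct and -0.28 ± 0.19 for pmelb. Their summed normalized counts were 20636 to 31352 with phenol red, 16193 to 23095 with guide RNA and 20566 to 28255 with Cas9, and no gene of the list was at 0 in any library. The highest phenol red sum was that of S2, where the other 4 reached at most 23572, and the lowest guide RNA sum was that of S6, where the other 4 were at least 20427. With stra6, 10 of the 11 had r over 0.5, with rlbp1b 7 and with rpe65a 1, where 1.48, 1.69 and 2.21% of all genes did. With rlbp1a, which differed little between groups, 4 of the 11 did, and with rbp2a 0, where 6.99 and 8.31% of all genes did. How much the melanin genes bear on the levels of the 5 was not tested.

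Of 16 regulators and markers of the pigment epithelium, 10 were negative in the same comparison, with a median of -0.01. Those with the highest counts were krt4 at -0.08 ± 0.09 (SE), cx43 at -0.02 ± 0.07, bhlhe40 at 0.04 ± 0.17 and otx2b, a transcription factor gene of the epithelium and other head tissue, at 0.07 ± 0.12. Of 13 neural crest pigment cell genes, 9 were negative with a median of -0.02, and tfap2a was at 0.02 ± 0.15, gch2 at -0.05 ± 0.30, pax7a at 0.11 ± 0.13 and sox10 at -0.01 ± 0.07. None of either list was called in any comparison.

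No gene of the lists for neighbouring eye cells was called in any comparison, without the block or with all positions in it. At an unadjusted p under 0.05 by limma with the block, 14 of 24 lens and 6 of 33 photoreceptor genes were lower with guide RNA than with phenol red. Of the 15 glia genes 0 were lower and 2 higher, and 2.75% of all genes were lower. With Cas9 against guide RNA, 11 lens, 9 photoreceptor and 0 glia genes were higher at that threshold with the block, beside 2.15% of all genes. Of 33 photoreceptor genes 26 were negative between guide RNA and phenol red, with a median of -0.05, and without S9 these were 19 of 33 and -0.01. The opsin genes opn1sw1, opn1lw2, rho and opn1mw1 were at -0.05 ± 0.10 (SE), -0.00 ± 0.08, -0.07 ± 0.25 and -0.00 ± 0.10. Among 24 lens genes the median was -0.10, 23 being below 0, and without S6 these were -0.05 and 20. The crystallin genes crybb1l1, crybb1l2, crybb1 and cryba1b were at -0.16 ± 0.16, -0.15 ± 0.09, -0.16 ± 0.14 and -0.19 ± 0.11. Of 15 genes of Müller glia and radial glia 8 were negative, with a median of -0.01, and slc1a2b, fabp7a, glula and cdh2 were at 0.15 ± 0.16, -0.01 ± 0.06, -0.05 ± 0.07 and 0.03 ± 0.14. Their member apoea was at -2.38 ± 1.37 and was listed at 0 in 1 library. Between Cas9 and guide RNA, 25 of 33 photoreceptor genes and 22 of 24 lens genes were positive, with medians of 0.06 and 0.13. In that comparison 49.1% of all genes were negative.

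**Figure D5:**
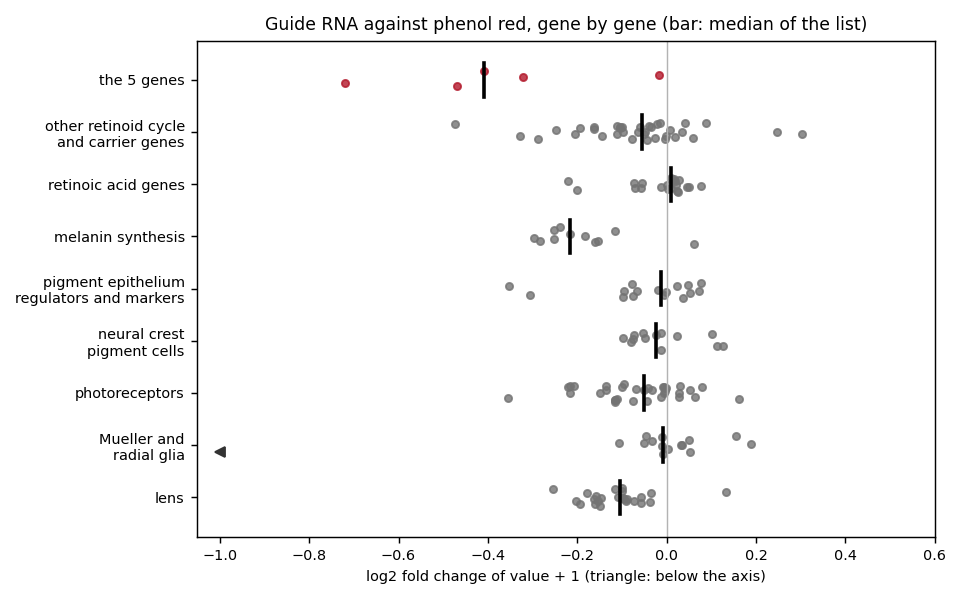
Log2 fold changes of guide RNA against phenol red (horizontal axis) for the 5 genes and each gene of 8 lists (points), with the median of each list (bar). The 5 genes have a median of -0.41 and the melanin genes -0.22, and the triangle marks apoea at -2.38, beyond the axis. The list of yolk, liver and gut genes, with a median of -0.40, is not drawn.

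The list of yolk, liver and gut genes, which holds rbp2b, the paralog of rbp2a, had its highest correlations with rbp2a. Of 24 genes tested, 14 had r over 0.5 with rbp2a, whereas 0 did with rpe65a, rlbp1a, rlbp1b or stra6, and 8.31% of all genes did with rbp2a. The median r was 0.51 with rbp2a and -0.50 with rlbp1a. Position means were not removed from these r. The mean log2 level of the list was highest at position 1 in each group, and rbp2a also had its highest position mean there. The summed normalized counts of all 25 matched genes of the list were 21587 to 110335 with phenol red, 20424 to 93400.3 with guide RNA and 12175 to 84012 with Cas9. The genes ttr and fabp1b.1 were each listed at 0 in 1 library. Between guide RNA and phenol red 22 of 24 were negative with a median of -0.40, which turned to 0.06 with 11 negative without S1. Standard errors were wide, such as 0.81 for apoa1b (-0.44), 0.83 for apobb.1 (-1.50) and 0.92 for tfa (-0.03), while apoeb was at -0.05 ± 0.08. With the block and position 2 taken out, ambp, tfa, serpina1, vtna and rbp2b of this list were called lower, from -0.86 to -0.50. None of the list was called without the block or with all positions in it. The part of such tissue in the levels of rbp2a was not tested.

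The genes that flank the 5 on their chromosomes, the nearest 2 tested genes on each side by the order of a RefSeq table of assembly GRCz12tu, were looked up by name. Between guide RNA and phenol red, 6 of these 20 genes were negative, the median was 0.02 and 0 had an unadjusted p under 0.05.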

How the data were processed

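RNA of 15 pools of zebrafish embryo heads was sequenced after capture with oligo-dT beads and a stranded kit, per the labels' protocols. The submitters' processing notes name STAR, HTSeq, DESeq2, bcl2fastq, cutadapt and Trim Galore. No source used here gives their versions or order, the genome build, the annotation or the strand setting. The authors deposited 3 tables, 1 per pair of groups. In them the authors deposited a normalized signal for every gene in every library, made by dividing the count by that library's size factor. Beside it the authors deposited log2 fold changes with standard errors, the statistic of their test (a score) and p-values. The tables in which a library appears gave its group. All values (100%) were whole multiples of 1 step per library within a tolerance of 0.001, and division by the step gave whole reads.

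Because the tables hold normalized values, limma 3.58.1 (trend, robust, R 4.3.3) was fitted to log2(value + 1) for the 10 libraries of 2 groups. Genes were kept if 5 or more libraries had a value of at least 10. Adjusted p is Benjamini-Hochberg over all genes tested, with a threshold of 0.05. The spread is that between pools of embryos, which the series calls biological replicates. Alternatives were edgeR 4.0.16 (quasi-likelihood) and DESeq2 1.42.0 on the recovered reads, TMM, other filters and pseudocounts, 1 fit of 3 groups, non-robust moderation, libraries left out, and a block of column position. The steps were tested on simulated data.

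Column positions were treated as pairing the libraries because deviations from group means correlated over 0.1 for every 1 of 15 same-position pairs (0.13 to 0.78, median 0.51), against -0.54 to 0.36 for 60 other pairs. Of the 15 libraries, 12 correlated best with the library at their own position in both other groups, so the pairing was not clear for every library. The pairing comes from the values and the column order, not from the labels.

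The members and the 9 gene lists (195 of 213 symbols matched, through names in the tables, Ensembl IDs or RefSeq synonyms) were chosen with earlier results of these data known. Named were ncapg2, the members, the 4 genes of each list with the highest mean over 15 libraries, and for each member the 3 most similar genes, leaving out clone-style names. No sequences or coordinates are given here, and a RefSeq table of another assembly served for names and the order of genes only.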

Additional observations from a re-analysis of the deposited data

Results flagged for a closer look

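The summed normalized count of the melanin genes in S2, 31352, lay far above the other 4 phenol red libraries, which were between 20636 and 23572. The summed normalized count of the yolk, liver and gut genes in S6, 93400.3, lay far above the other 4 guide RNA libraries, which were between 20424 and 26250.5. These were 2 of 42 sets of 5 libraries looked at, the 5 genes and 9 lists in each group, and chance marks about 1 in 20 such sets. No library of the 5 genes themselves stood apart in this way.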

How the results depend on the processing

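For each of the 5 genes, the fold change moved by less than the spread between libraries under every alternative run, and for rpe65a, rlbp1b, stra6 and rbp2a the sign was the same under every alternative in all 3 comparisons. The exception in sign was rlbp1a, positive at 0.025 without S5 and at 0.0042 without S8 for guide RNA against phenol red, and at 0.0025 without S10 for Cas9 against guide RNA. With each library left out, the log2 fold change for guide RNA against phenol red ran from -0.84 to -0.60 for rlbp1b, from -0.53 to -0.39 for rpe65a, from -0.54 to -0.32 for rbp2a and from -0.37 to -0.28 for stra6. With each library left out, 0 of the 5 genes were called in any comparison, and 0 genes in all for guide RNA against phenol red. The medians of the gene lists with single libraries left out were also chosen after seeing the data.

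The replicate block of column position raised the number of genes called by limma from 0 to 4 for guide RNA against phenol red, from 1 to 3 for Cas9 against guide RNA and from 1 to 2 for Cas9 against phenol red, and edgeR with the block also called 4, 3 and 2. Of the 5 genes 2 were called with the block by limma, and 2 by edgeR, for guide RNA against phenol red, where 0 were without it. DESeq2 without the block called 2 genes for Cas9 against phenol red. With the block and column positions 1 to 5 taken out in turn, an alternative chosen after seeing the data, guide RNA against phenol red gave 5, 74, 2, 0 and 4 genes, with 3, 2, 0, 0 and 2 of the 5 among them. The same gave 1, 6, 1, 3 and 2 genes for Cas9 against guide RNA, with rlbp1b the 1 member called when position 2 was out, and 0, 3, 1, 4 and 1 genes for Cas9 against phenol red. With all positions kept, the block changed no other call by limma of a list gene or a member. With position 2 out, it called rbp4l and 5 genes of yolk, liver and gut lower with guide RNA.

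Fold changes near the standard errors given, about 0.06 to 0.23 on the log2 scale, could not be resolved with 5 libraries a group. Changes of several standard errors could also go without a call over all genes. An example was rlbp1b between guide RNA and phenol red, at -0.72 ± 0.16 (SE) without the block. With the block its limma adjusted p was 0.30.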
